A study of Mus musculus with 20 samples.

Results

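Signals of 10 antioxidant genes were followed in the blood of mice 24 h after whole-body irradiation: Gclc, Gclm, Gss, Gsr, Gpx1, Hmox1, Nqo1, Txnrd1, Srxn1 and Slc7a11. They were picked by name, and every non-control probe carrying one of these names on the array was taken, which gave 12 of 39429 probes. Whole-blood RNA, reduced for globin transcripts, had been hybridised to 20 single-colour Agilent mouse arrays, 1 per mouse, with 5 mice in each of 4 groups. The animals were male littermates 8 to 10 weeks of age from crosses of heterozygous parents, either WT on the C57BL/6 background or carrying the Il10 deletion allele of the strain B6.129P2-Il10tm1Cgn/J (Il10-/-), a model of inflammatory bowel disease. Each genotype was exposed to 7 Gy of X-rays or sham-irradiated (0 Gy), and blood was collected 24 h later. The comparisons asked which genes differed between the genotypes before exposure, which responded to 7 Gy in each genotype, and whether the responses differed.

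Glutathione is the main small thiol of the cell. Glutamate-cysteine ligase, made of the catalytic subunit Gclc and the modifier subunit Gclm, joins cysteine to glutamate, and Gss adds glycine. Slc7a11 is the cystine carrier of system xc-. Gpx1 reduces hydrogen peroxide with glutathione and is abundant in red cells, and Gsr restores the oxidised form with NADPH. Txnrd1 keeps thioredoxin reduced, and Srxn1 repairs overoxidised peroxiredoxins. Hmox1 degrades heme and Nqo1 reduces quinones. Many of these genes are induced through Nrf2 (encoded by Nfe2l2), which is held back by Keap1, binds the antioxidant response element and competes there with the repressor Bach1.

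Each probe is a 60-base oligonucleotide, and all 12 carry a RefSeq accession that belongs to the gene of the same symbol in the RefSeq table of GRCm38.p6. The sequences shown are those of the probes on which the results turn, in lower case and 5′ to 3′. The probes of Gpx1 (chr9:108242276-108242335 of mm9, plus strand) and Hmox1 A_55_P2029687 (chr8:77620797-77620856, plus strand), and those of Gclm and Gss, for which the array files give no position, have a forward reading frame without a stop codon and are printed whole. Of the probes of Srxn1 (chr2:151937009-151937068, plus strand) and Hmox1 A_51_P263965 (chr8:77624207-77624266, plus strand), which have no such frame, the first 30 bases are printed. An annotation of mm9 was not used here, so exon or UTR positions are not stated.
Srxn1 A_55_P2033120: gaagaatgtatgggaactctagtctctgca
Gpx1 A_52_P684378: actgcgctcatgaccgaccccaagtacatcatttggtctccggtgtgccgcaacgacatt
Gclm A_51_P320089: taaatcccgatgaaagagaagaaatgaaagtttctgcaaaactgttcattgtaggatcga
Gss A_52_P358860: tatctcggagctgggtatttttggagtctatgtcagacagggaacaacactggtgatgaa
Hmox1 A_51_P263965: atggttgtaagcatccatgttgactgacca
Hmox1 A_55_P2029687: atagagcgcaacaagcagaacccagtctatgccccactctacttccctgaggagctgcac

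The core letters of the antioxidant response element, TGACNNNGC, were searched on both strands of the RefSeq promoter windows of GRCm38.p6, which run from 250 bases before to 50 bases after a gene start. This core shares its opening letters TGAC with the site bound by AP-1. Windows were given for 7 of the 10 genes (Gclm, Gpx1, Gss, Nqo1, Slc7a11, Srxn1 and, with 3 windows, Txnrd1). The letters were present in 3 of these 9 windows, belonging to Srxn1, Gclm and Txnrd1, and in 12.4% of all 32851 windows. They are shown in capitals as read on the gene's own strand, which is plus in all 3. Each match reads as TGACNNNGC on the opposite strand.
Srxn1 (chr2:152105542-152105570): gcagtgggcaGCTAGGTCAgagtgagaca
Gclm (chr3:122245413-122245441): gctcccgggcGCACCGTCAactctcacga
Txnrd1 (chr10:82859104-82859132): ctggatttttGCTTTGTCAttctgacacg
In Srxn1 the match begins at base 29 after the start, in Gclm at base -134 and in Txnrd1 at base -92. A match of letters is a description of the window and does not show binding.

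Values are log2 intensities relative to the median of the same array. Calls needed an unadjusted p under 0.001 and, by Benjamini-Hochberg, a false discovery rate below 10%, in limma fits over the 18587 probes that passed the filters on background and on change between arrays. Of the 12 probes, 10 probes of 9 genes passed. Gsr A_55_P1966982 missed the filter on change, with 3 arrays at least 1.5-fold from its median, and Slc7a11 was not significantly above background on any of the 20 arrays. The tested probes were well above background on 17 to 20 of 20 arrays and never saturated.

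The probe of the targeted gene, Il10, separated the genotype labels, with its higher signals under the label of the deletion. Among animals labelled Il10-/-, the Il10 probe averaged 2.75 ± 0.31 at 0 Gy and 2.71 ± 0.62 at 7 Gy (log2 signal, SD, n = 5), well above background on all 10 arrays. The WT label went with averages of -1.54 ± 0.45 and -1.85 ± 0.61 (SD, n = 5) and with 0 of 10 arrays well above background. Whether this probe lies in the deleted part was not established, and each genotype below is the one on the label. The labels also separated mature neutrophil markers at 0 Gy (12 of 12 genes used), which averaged 5.86 ± 0.73 under the WT label and 7.72 ± 0.57 under the Il10-/- label (SD, n = 5), with 7 of 12 genes called higher in the latter. Between 29.9% and 57.8% of spots were well above background, and the lowest share was that of replicate 5 of the unirradiated mice labelled WT. That array was also the least precise. Its median SD between log2 values of repeat spots, over the brighter probes, was 0.477, against 0.064 to 0.104 on the other arrays. Replicates 1 and 2 resembled each other in all groups, with a robust SD of their log2 differences of 0.23 to 0.34 against 0.41 to 1.39 in the other 36 pairs. The 20 arrays lay on 5 slides, each holding 1 replicate number and 1 array of each group, so differences within slides are given as well.

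Srxn1 rose after 7 Gy in both genotypes. The log2 signals of mice labelled WT were 6.54, 6.65, 6.28, 6.72 and 5.97 at 0 Gy and 7.85, 7.82, 7.98, 8.43 and 8.30 at 7 Gy (replicates 1 to 5). Every irradiated array lay above every unirradiated one. The mean went from 6.43 ± 0.31 to 8.08 ± 0.27 (SD, n = 5), which is 3.13-fold higher (difference 1.64, SE 0.35, adjusted p = 0.00629). Within the 5 slides it ran from 1.17 to 2.33, and with the slide as a block the call stood (adjusted p = 0.00834). It was not called without unirradiated replicate 3 (adjusted p = 0.0197), irradiated replicate 4 (0.0163) or irradiated replicate 5 (0.0185), where the difference stayed between 1.56 and 1.61, and across the 10 arrays left out in turn it ran from 1.53 to 1.72. It was also not called with replicates 1 and 2 averaged (1.75, adjusted p = 0.0336).

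The Srxn1 signals under the Il10-/- label were 7.45, 7.53, 6.11, 6.01 and 7.05 at 0 Gy and 8.80, 8.58, 7.91, 9.21 and 8.46 at 7 Gy. These groups did not overlap either, although the unirradiated arrays spread more widely than those of mice labelled WT. The mean went from 6.83 ± 0.73 to 8.59 ± 0.48 (SD, n = 5), which is 3.39-fold higher (difference 1.76, SE 0.36, adjusted p = 0.00567). Within slides it ran from 1.05 to 3.20, and with the slide as a block it was not called (adjusted p = 0.0149). Leaving out unirradiated replicate 3 (1.58, adjusted p = 0.0134), irradiated replicate 1 (1.71, adjusted p = 0.0163) or irradiated replicate 4 (1.61, adjusted p = 0.0141) also ended the call, as did normexp background correction (1.35, adjusted p = 0.944). The difference between the 2 responses of Srxn1 was 0.12 (95% interval -0.89 to 1.12, adjusted p = 0.963).

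Gpx1 fell after 7 Gy in mice labelled Il10-/-. Its log2 signals there were 14.56, 14.70, 14.37, 14.10 and 15.13 at 0 Gy and 11.87, 12.23, 12.69, 12.96 and 13.52 at 7 Gy. All irradiated arrays were below all unirradiated ones. The mean went from 14.57 ± 0.39 (SD, n = 5) to 12.65 ± 0.64 (SD, n = 5), which is 3.78-fold lower (difference -1.92, SE 0.32, adjusted p = 0.00205). The difference was between -2.69 and -1.13 within slides and was called with the slide as a block (adjusted p = 0.00761) and without any single array (adjusted p = 0.00113 to 0.00721). It was not called with normexp background correction (-2.25, adjusted p = 0.944).

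In mice labelled WT the Gpx1 signals were 14.34, 14.59, 14.26, 15.80 and 13.32 at 0 Gy and 12.50, 12.65, 13.07, 13.52 and 13.08 at 7 Gy. Irradiated replicate 4 lay above unirradiated replicate 5, so the groups overlapped by this pair, and all 5 slides had the lower signal at 7 Gy. The difference of -1.50 (SE 0.45, adjusted p = 0.0340) was not called. Without unirradiated replicate 5, the array with the fewest spots well above background, it was -1.78 and called (adjusted p = 0.00773). The responses of Gpx1 in the 2 genotypes differed by -0.42 (95% interval -1.59 to 0.75, adjusted p = 0.867).

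Gclm, the modifier subunit of glutamate-cysteine ligase, fell after 7 Gy in mice labelled WT. The log2 signals were 6.32, 6.83, 6.73, 7.86 and 6.16 at 0 Gy and 4.50, 4.84, 5.19, 5.56 and 5.18 at 7 Gy, with no overlap. The mean went from 6.78 ± 0.66 (SD, n = 5) to 5.05 ± 0.40 (SD, n = 5), which is 3.30-fold lower (difference -1.72, SE 0.41, adjusted p = 0.0113), and the differences within slides were -2.30 to -0.98. The call was lost without any 1 of 7 arrays: unirradiated replicates 2, 3 and 4 and irradiated replicates 1, 2, 3 and 5 (differences -1.76 to -1.45, adjusted p = 0.0222 to 0.0378). It was also lost with replicates 1 and 2 averaged (-1.68, adjusted p = 0.0551) and with normexp background correction (-0.46, adjusted p = 0.532).

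The Gclm signals of mice labelled Il10-/- were 6.78, 7.18, 5.86, 5.87 and 7.13 at 0 Gy and 4.76, 5.37, 5.20, 5.81 and 5.62 at 7 Gy. The groups did not overlap, but the highest irradiated and the lowest unirradiated array were only just apart. The difference was -1.21 (SE 0.33, adjusted p = 0.0228) and was not called. Between the genotypes, the responses of Gclm differed by 0.51 (95% interval -0.57 to 1.60, adjusted p = 0.805).

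**Figure D1:**
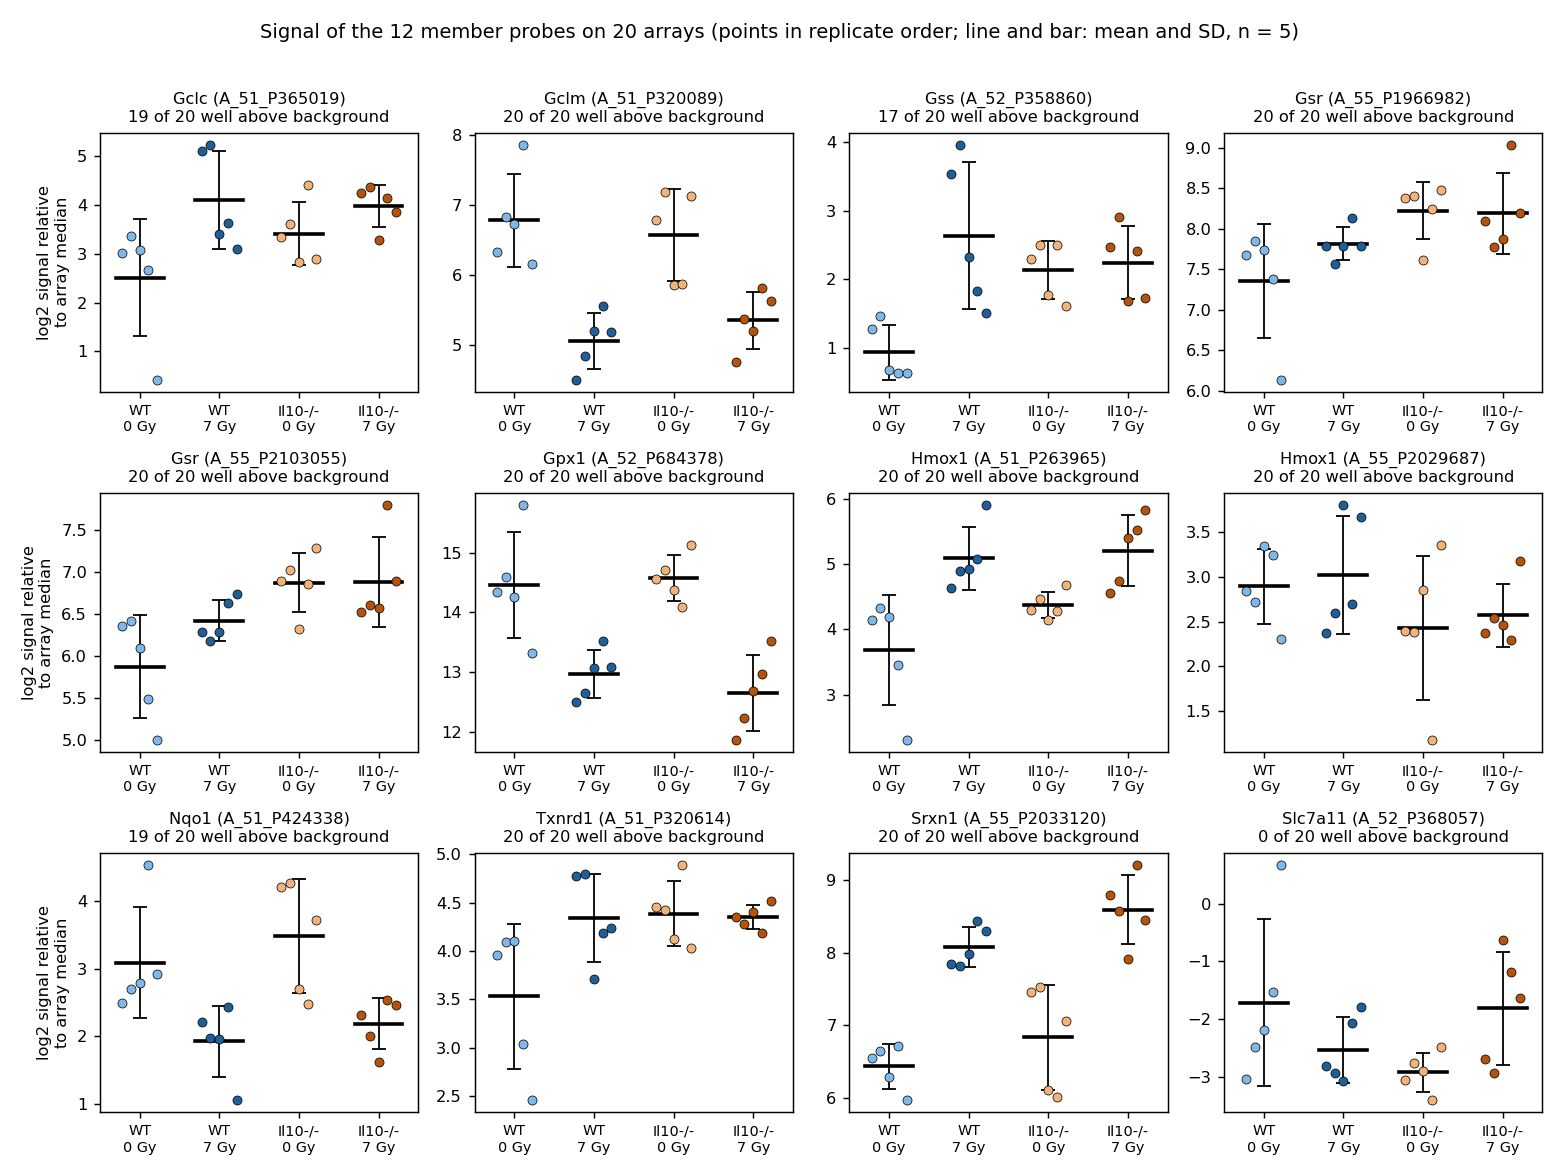
Log2 signal relative to the array median (vertical axes, 1 scale per probe) of all 12 probes in the 4 groups; points are arrays in replicate order, horizontal lines means and bars SD (n = 5). Srxn1 was higher at 7 Gy without overlap in both genotypes, Gclm was called lower in mice labelled WT (3.30-fold) and Gpx1 in mice labelled Il10-/- (3.78-fold), and Slc7a11 was well above background on 0 of 20 arrays.

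Gclc, the catalytic subunit, had a log2 signal of 2.51 ± 1.19 (SD, n = 5) at 0 Gy and 4.09 ± 1.00 (SD, n = 5) at 7 Gy in mice labelled WT. The difference of 1.58 (SE 0.59, adjusted p = 0.0816) was not called. Irradiated replicates 1 and 2 (5.10 and 5.22) stood above the other 3 (3.09 to 3.62), and unirradiated replicate 5 (0.42) stood below the rest. In mice labelled Il10-/- the means were 3.41 ± 0.64 (SD, n = 5) and 3.97 ± 0.43 (SD, n = 5), with a difference of 0.57 (SE 0.33, adjusted p = 0.244). Gclc was not called in either genotype, and its response was not compared with that of Gclm by a test.

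Gss, which completes glutathione, separated the groups of mice labelled WT without reaching the threshold. Its signals were 1.27, 1.46, 0.68, 0.62 and 0.63 at 0 Gy and 3.54, 3.96, 2.32, 1.82 and 1.51 at 7 Gy, and it was well above background on 3 and 5 of these arrays. All irradiated arrays lay above all unirradiated ones, replicates 1 and 2 by the widest margin. The difference of 1.70 (SE 0.49, adjusted p = 0.0281) was not called, whereas with the slide as a block it was (adjusted p = 0.00884). In mice labelled Il10-/- the signals were 2.29, 2.50, 1.77, 2.51 and 1.60 at 0 Gy and 2.47, 2.91, 1.68, 2.42 and 1.72 at 7 Gy. Here the groups covered nearly the same range, and the difference was 0.11 (95% interval -0.59 to 0.81, adjusted p = 0.819).

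The responses of Gss differed by -1.59 between the genotypes, and on 5 of 5 slides the response was smaller in mice labelled Il10-/- (95% interval -2.83 to -0.35, unadjusted p = 0.0125, adjusted p = 0.688). This did not pass the threshold. With the mean of liver-cell (hepatocyte) markers, given below, as a covariate, the difference was -0.91 (unadjusted p = 0.102, adjusted p = 0.978). Those markers separated the dose groups labelled WT themselves, so their part cannot be told from that of dose. At 0 Gy, all 5 arrays of mice labelled Il10-/- lay above those of mice labelled WT for Gss (difference 1.20, SE 0.37, adjusted p = 0.197), again without a call.

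**Figure D2:**
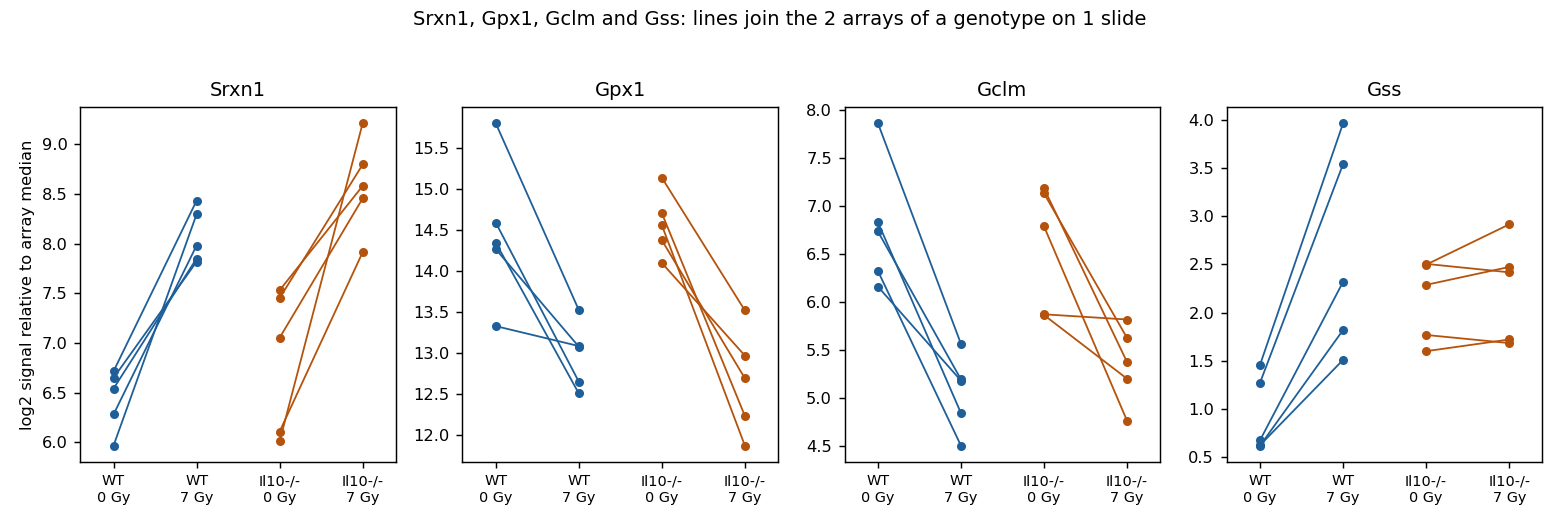
Log2 signal relative to the array median (vertical axis) of Srxn1, Gpx1, Gclm and Gss, with lines joining the 0 Gy and 7 Gy arrays of 1 genotype on 1 slide (5 slides). Lines of Srxn1 rise by 1.05 to 3.20 and lines of Gpx1 and Gclm descend on every slide, while lines of Gss go up on 5 of 5 slides in mice labelled WT and on 3 of 5 in mice labelled Il10-/-.

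Slc7a11 signals were not well above background on any array, so no level or difference is given for this carrier. Gsr, the reductase that recycles glutathione, gave small differences after 7 Gy on its tested probe A_55_P2103055: 0.55 (SE 0.39, adjusted p = 0.381) in mice labelled WT and 0.01 (SE 0.29, adjusted p = 0.990) in mice labelled Il10-/-. The untested probe A_55_P1966982 went from 7.36 ± 0.70 to 7.82 ± 0.20 and from 8.22 ± 0.35 to 8.19 ± 0.50 (SD, n = 5). At 0 Gy the tested Gsr probe was 1.00 higher in mice labelled Il10-/- (SE 0.39, unadjusted p = 0.0195, adjusted p = 0.255) and not called. With each array left out in turn it ran from 0.78 to 1.14.

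Txnrd1, the cytosolic thioredoxin reductase, rested on signals of 2.46 to 4.10 and 3.70 to 4.80 at 0 and 7 Gy in mice labelled WT and of 4.03 to 4.89 and 4.19 to 4.51 in mice labelled Il10-/-. Neither difference was called (0.81, adjusted p = 0.228, and -0.04, adjusted p = 0.917), nor was the difference between them (-0.85, 95% interval -1.84 to 0.14, adjusted p = 0.688). The spread within the irradiated Il10-/- group was the smallest of the 4 (SD 0.12, n = 5).

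The 2 probes of Hmox1, the inducible heme oxygenase, disagreed. On A_51_P263965 the log2 signals of mice labelled WT were 4.15, 4.33, 4.18, 3.46 and 2.31 at 0 Gy and 4.64, 4.90, 4.92, 5.08 and 5.91 at 7 Gy. The groups did not overlap, and replicate 5 held both the lowest unirradiated and the highest irradiated value. The difference of 1.40 (SE 0.45, adjusted p = 0.0450) was not called. In mice labelled Il10-/- the same probe gave 4.29, 4.46, 4.14, 4.28 and 4.68 at 0 Gy and 4.55, 4.74, 5.39, 5.53 and 5.83 at 7 Gy. Irradiated replicate 1 lay within the unirradiated range, and the difference of 0.84 (SE 0.27, adjusted p = 0.0472) was not called. With all arrays scaled to 1 reference array in place of the array median, or with the values the authors deposited in their table, the difference in mice labelled WT was 1.32 and called (adjusted p = 0.00833 and 0.00835).

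On A_55_P2029687 the Hmox1 differences were 0.13 (SE 0.41, adjusted p = 0.866) and 0.14 (SE 0.36, adjusted p = 0.813). The groups overlapped in both genotypes, with signals of 2.31 to 3.35 and 2.37 to 3.81 at 0 and 7 Gy in mice labelled WT and of 1.17 to 3.35 and 2.29 to 3.18 in mice labelled Il10-/-. No direction is therefore given for the gene.

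Nqo1, the quinone reductase, had signals of 2.50, 2.70, 2.79, 4.54 and 2.92 at 0 Gy and 2.21, 1.97, 1.96, 2.43 and 1.06 at 7 Gy in mice labelled WT. The groups did not overlap, and unirradiated replicate 4 stood above the others. The difference of -1.16 (SE 0.45, adjusted p = 0.0927) was not called. Mice labelled Il10-/- had 4.22, 4.27, 2.71, 2.48 and 3.73 at 0 Gy and 2.32, 2.00, 1.62, 2.54 and 2.47 at 7 Gy. There the irradiated arrays were lower on 4 of 5 slides, and the difference of -1.29 (SE 0.38, adjusted p = 0.0301) was not called with all arrays and was called without unirradiated replicate 4 (-1.54, adjusted p = 0.0126).

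**Figure D3:**
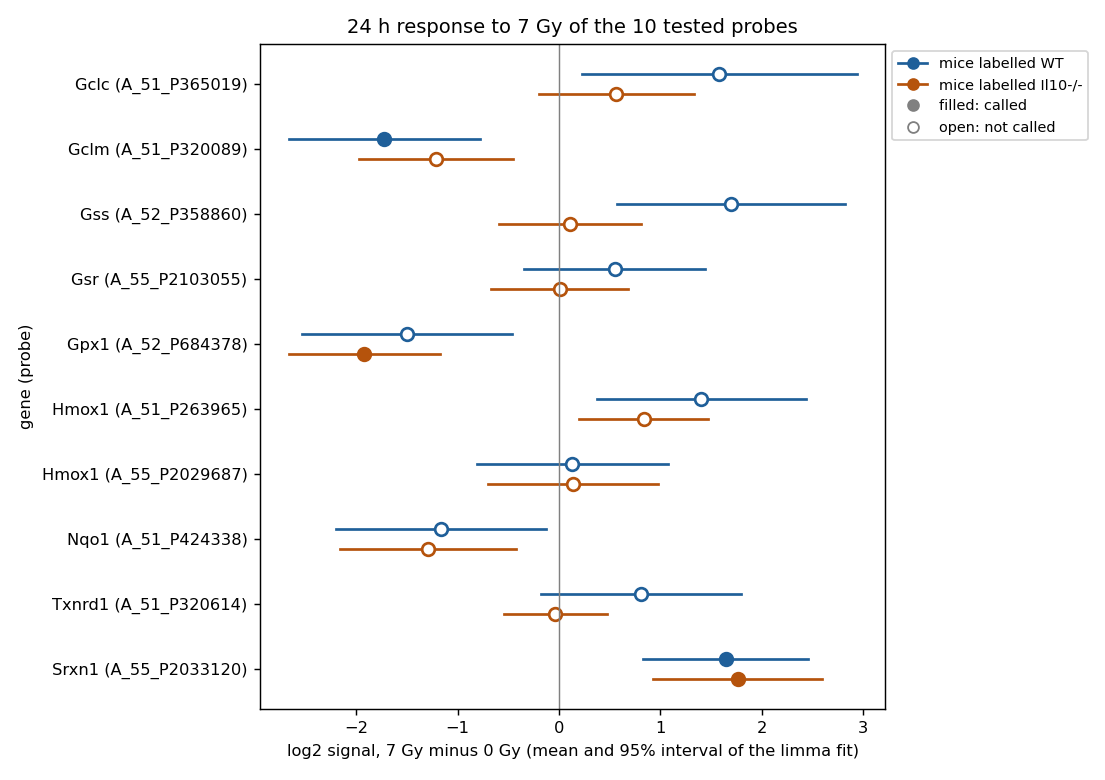
Difference in log2 signal between 7 Gy and 0 Gy (horizontal axis) for the 10 tested probes (vertical axis) in mice labelled WT and Il10-/-. Points are means over 5 arrays a group, and filled points are called differences. Bars are 95% intervals from the SE of the limma fit and the residual degrees of freedom. Srxn1 is called in both genotypes (1.64 and 1.76), Gclm in mice labelled WT (-1.72) and Gpx1 in mice labelled Il10-/- (-1.92).

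Over the tested probes, 2 of 10 were called for the radiation response of mice labelled WT, 1 higher and 1 lower, beside 6.8% of all 18587 probes (4.48% higher and 2.32% lower). For mice labelled Il10-/- it was again 2 of 10, 1 in each direction, beside 9.16% (3.29% higher and 5.87% lower). With so few probes these counts do not set the genes apart from the array as a whole. Groups did not overlap for 5 of 10 probes in mice labelled WT, 3 higher (11.8% of all probes) and 2 lower (4.26%), beside 16.1% in either direction. In mice labelled Il10-/- it was 3 of 10, 1 higher (6.11% of all probes) and 2 lower (10.9%), beside 17%. An unadjusted p below 0.05 was reached by 7 of 10 probes in mice labelled WT, beside 29.1% of all probes, and by 5 of 10 in mice labelled Il10-/-, beside 35.5%. The median response of the 10 probes was 0.68 and 0.06 in the 2 genotypes, where that of all tested probes was -0.02 and -0.10.

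Between the genotypes, 0 of 10 probes were called at 0 Gy, beside 0.845% of all probes, and 2 of 10 had an unadjusted p below 0.05 (Gss and Gsr), beside 16.1%. The groups of 1 of 10, Gss, did not overlap, beside 4.52%. The median of the 10 differences was 0.54 and that of all tested probes 0.36. With the 75th percentile of each array in place of its median, 8 of the 10 probes passed the filters (not Gsr or Txnrd1), and their median was 0.05 where the same 8 had 0.40 before. With the reference array 9 passed (not Gsr), with a median of 0.12 where the same 9 had 0.40. The median over all probes tested under these scalings was -0.07 and 0.01. At 7 Gy, 0 of 10 were called beside 0.00538%, and 0 of 10 reached an unadjusted p below 0.05, beside 11.1%. The differences ran from -0.46 (Hmox1 A_55_P2029687) to 0.52 (Srxn1, adjusted p = 0.487), and groups did not overlap for 0 of 10, beside 2.95%. For the difference of the radiation responses 0 of 10 were called, beside 0% of all probes. Gss alone had an unadjusted p below 0.05, beside 7% of all probes.

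Without Slc7a11, the 4 groups ordered by their means gave 33 neighbouring pairs over 11 probes, and 30 of these overlapped. The unirradiated mice labelled WT had the lowest mean on 7 of the 11 probes, and replicate 5 of that group was the lowest of its 5 arrays for Gclc, Gclm, Gpx1, Srxn1, Txnrd1 and both probes of Gsr and Hmox1. These orders hold for values relative to the array median and can change with the scaling. The authors' table added 1.75 to the log2 intensities of that replicate 5, and -0.66 to 1.21 to those of the other arrays of its group.

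Markers of other cells and tissues moved with the responses. The erythroid list (14 of 15 genes used) had a mean log2 signal of 6.47 to 8.45 at 0 Gy and 5.11 to 6.30 at 7 Gy under the WT label, and of 6.57 to 8.22 and 5.17 to 6.42 under the Il10-/- label. Neither pair of ranges overlapped, and 8 of the 13 tested genes were called lower in each genotype. With the mean of these markers as a covariate, Gpx1 differed by -0.65 (adjusted p = 0.374) in mice labelled Il10-/- and by 0.27 (adjusted p = 0.789) in mice labelled WT. Under the same covariate Gclm differed by -0.32 (adjusted p = 0.734) in mice labelled WT and by 0.20 (adjusted p = 0.798) in mice labelled Il10-/-, and Nqo1 by 0.10 (adjusted p = 0.953) and 0.23 (adjusted p = 0.819). The covariate separates the dose groups itself, which leaves little independent spread. Srxn1 kept its rise under it, at 2.23 (adjusted p = 0.0542) in mice labelled WT and 2.90 (adjusted p = 0.00993) in mice labelled Il10-/-. In these bulk samples, fewer cells of a type and less RNA per cell cannot be told apart.

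B cell markers (11 of 12 genes used) made the widest move among the blood cell lists, from a group mean of 6.06 to 2.81 under the WT label and from 5.81 to 2.26 under the Il10-/- label, with no overlap and 10 of 11 genes called lower in each. T cell markers (12 of 12) averaged 5.20 and 4.08 at 0 and 7 Gy under the WT label, where arrays overlapped, and 5.61 and 4.69 under the Il10-/- label, where they did not, with 3 of 10 tested genes called lower in each. Platelet markers (10 of 10) averaged 8.21 and 9.46, without overlap, and 9.20 and 10.36, with overlap, and 0 of 10 genes were called. Heart muscle markers (8 of 14) averaged 1.42 and 4.17 under the WT label (0 of 8 genes called) and 0.87 and 5.49 under the Il10-/- label (5 of 8 called higher), with overlap in both. The part of these 4 lists in the members' values was not tested.

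Hepatocyte markers, genes of liver cells, varied between arrays of 1 group. Over 18 of 20 genes their mean log2 signal was at most 1.65 in the unirradiated mice labelled WT and 2.40 to 10.77 in the irradiated ones. It was 1.85 to 9.10 and 1.35 to 9.03 in the 2 groups labelled Il10-/-. In mice labelled WT, 13 of the 18 genes were called higher after 7 Gy. Irradiated replicates 1 and 2, which held the highest Gclc and Gss signals of that genotype, also held the highest hepatocyte means (10.75 and 10.77). In mice labelled WT the hepatocyte mean separated the dose groups itself, so a fit with it cannot tell its part from that of dose. With this mean as a covariate, the difference in mice labelled WT was -0.05 (adjusted p = 0.986) for Gss and -0.06 (adjusted p = 0.986) for Gclc, and neither Srxn1 (2.02, adjusted p = 0.210) nor Gclm (-1.15, adjusted p = 0.600) was called. In mice labelled Il10-/- Srxn1 (1.85, adjusted p = 0.00277) and Gpx1 (-1.75, adjusted p = 0.00105) were called under it. Monocyte and macrophage markers (12 of 15 genes used) averaged 4.26 ± 1.14 and 5.97 ± 0.36 at 0 and 7 Gy under the WT label, against 5.08 ± 0.12 and 5.89 ± 0.21 under the Il10-/- label (SD, n = 5). These genes went both ways. Of the 11 tested, 6 were called higher and 1 lower under the WT label, and 4 higher and 2 lower under the Il10-/- label. Their part in the Srxn1 and Hmox1 values was not tested. Neutrophil precursor markers (9 of 9 genes used) averaged 2.88 ± 0.59 and 2.78 ± 0.48 at 0 and 7 Gy under the WT label. Under the Il10-/- label they averaged 5.33 ± 1.13 and 3.62 ± 0.78 (SD, n = 5). At 0 Gy, 5 of 9 were called higher under the Il10-/- label. After 7 Gy, 2 were called lower under that label, and 1 higher and 1 lower under the WT label. The part of these and of the mature neutrophil markers, given with the genotype labels, in the baseline values of Gss and Gsr was not tested.

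**Figure D4:**
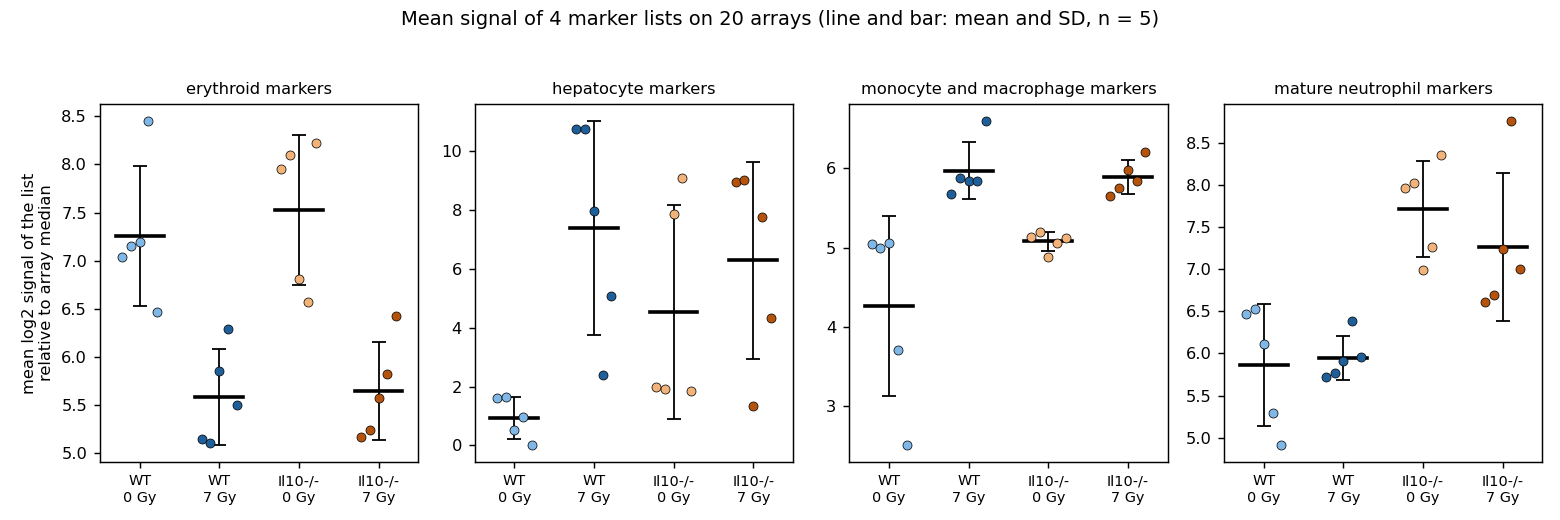
Mean log2 signal relative to the array median (vertical axes) of the erythroid, hepatocyte, monocyte and macrophage, and mature neutrophil markers in the 4 groups; points are arrays in replicate order, lines means and bars SD (n = 5). Erythroid means do not overlap between 0 and 7 Gy in either genotype, and hepatocyte means range from 2.40 to 10.77 among the irradiated mice labelled WT.

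Of 10 regulators listed, 6 were tested and 0 of these were called in any of the 5 comparisons. Nfe2l2, which encodes Nrf2, missed the filter on change and had log2 signals of 4.38 ± 0.80 and 5.06 ± 0.16 at 0 and 7 Gy in mice labelled WT and of 5.33 ± 0.29 and 5.44 ± 0.36 in mice labelled Il10-/- (SD, n = 5). Keap1, the adaptor that marks Nrf2 for degradation, differed after 7 Gy by 0.70 (SE 0.40, adjusted p = 0.274) in mice labelled WT and by 0.21 (SE 0.25, adjusted p = 0.578) in mice labelled Il10-/-. Bach1, the repressor, gave 0.84 (SE 0.44, adjusted p = 0.225) and 0.12 (SE 0.27, adjusted p = 0.788). The response was above 0 for 5 of the 6 in mice labelled WT and for 3 of the 6 in mice labelled Il10-/-.

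Of 58 further genes in 6 pathway lists, all were on the array and 49 were tested. In mice labelled WT 8 genes were called higher and 3 lower after 7 Gy, and in mice labelled Il10-/- 3 higher and 8 lower. By probe, 9 of 60 were called higher and 3 lower under the WT label, beside 4.48% and 2.32% of all probes. Under the Il10-/- label it was 3 and 8 of 60, beside 3.29% and 5.87%, so the whole array tilted the same ways. At 0 Gy, 3 genes were called higher in mice labelled Il10-/- and 0 lower (3 of 60 probes, beside 0.845%). In the other 2 comparisons 0 were called.

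Glrx5, Hagh and Slc48a1 fell in both genotypes. Glrx5, the mitochondrial glutaredoxin of iron-sulfur cluster assembly, differed by -2.29 (adjusted p = 0.00325) in mice labelled WT and -2.53 (adjusted p = 0.000401) in mice labelled Il10-/-. Hagh, the glyoxalase that releases glutathione, differed by -1.81 (adjusted p = 0.00763) and -2.02 (adjusted p = 0.00114). Slc48a1, a heme transporter, differed by -2.08 (adjusted p = 0.00506) and -1.64 (adjusted p = 0.00859). The erythroid markers given above fell in the same arrays, and their part in these values was not tested.

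Peroxiredoxins, the thiol peroxidases that Srxn1 repairs, went both ways. Prdx4 rose by 2.32 (adjusted p = 0.00481) in mice labelled WT and by 1.00 (adjusted p = 0.0104) in mice labelled Il10-/-. Prdx6 was called higher in both genotypes, on probe A_55_P2176729 in mice labelled WT (1.64, adjusted p = 0.00889) and on A_55_P2103561 in both (1.60, adjusted p = 0.00803, and 1.24, adjusted p = 0.00498). Prdx5 rose by 1.61 (adjusted p = 0.0109) in mice labelled WT. Prdx2, the peroxiredoxin of red cells, was called lower in mice labelled Il10-/- (-1.83, adjusted p = 0.00131), as was the mitochondrial reductase Txnrd2 (-1.61, adjusted p = 0.00112). In mice labelled WT the Prdx2 difference was -0.84 (adjusted p = 0.435), and the 2 responses of Prdx2 differed by -0.98 (adjusted p = 0.754).

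Other genes that fell in mice labelled Il10-/- were Blvrb, which reduces biliverdin (-2.01, adjusted p = 0.000841), Cat, which splits hydrogen peroxide (-1.94, adjusted p = 0.00344), and Sod2, the mitochondrial superoxide dismutase (-1.48, adjusted p = 0.00587). Blvrb, Cat, Sod2 and Txnrd2 were not called in mice labelled WT, but 0 genes of the lists were called for the difference of the responses. The fall is therefore not shown to be particular to 1 genotype. Erythroid markers fell in the same arrays, and their part in these values and in those of Prdx2 was not tested. Gpx7 also passed the test in mice labelled Il10-/- (adjusted p = 0.00492), but it was well above background on 0 unirradiated and 1 irradiated array, so no fold is given. In mice labelled WT, 3 of the genes that rose were not well above background on any unirradiated array. Each of the 3 was well above it on 4 of 5 irradiated arrays. Over these 5 arrays the log2 signals ran from 0.37 to 4.59 (Me1), -0.12 to 4.57 (Sod3) and 0.41 to 3.25 (Gpx3). Me1, which makes NADPH from malate, was at least 6.85-fold higher (adjusted p = 0.00121), extracellular Sod3 at least 6.41-fold (adjusted p = 0.00361) and plasma Gpx3 at least 4.76-fold (adjusted p = 0.00121), as bounds against the lowest signal well above background on each array. Anpep, an aminopeptidase (3.68, adjusted p = 0.00166), and Idh1, which makes NADPH from isocitrate (2.33, adjusted p = 0.00362), also rose. Hepatocyte markers rose in the same arrays, as given above, and their part was not tested for these genes. At 0 Gy, the Il10-/- label went with a Me1 signal at least 2.63-fold that under the WT label (adjusted p = 0.0170), and Ggt1, which cleaves extracellular glutathione, was 1.77 higher (adjusted p = 0.0440). Gpx3 was called there as well (at least 1.89-fold, adjusted p = 0.0814). Its groups overlapped, and it is named here after its values were seen. Under the Il10-/- label, Me1 and Gpx3 were each well above background on 4 of these 5 arrays. The hepatocyte means at 0 Gy did not overlap between the labels either (at most 1.65 for WT, 1.85 to 9.10 for Il10-/-). All 18 hepatocyte genes were higher under the Il10-/- label, 2 of them called. Their part in the values of Me1, Ggt1 and Gpx3 at 0 Gy was not tested.

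**Figure D5:**
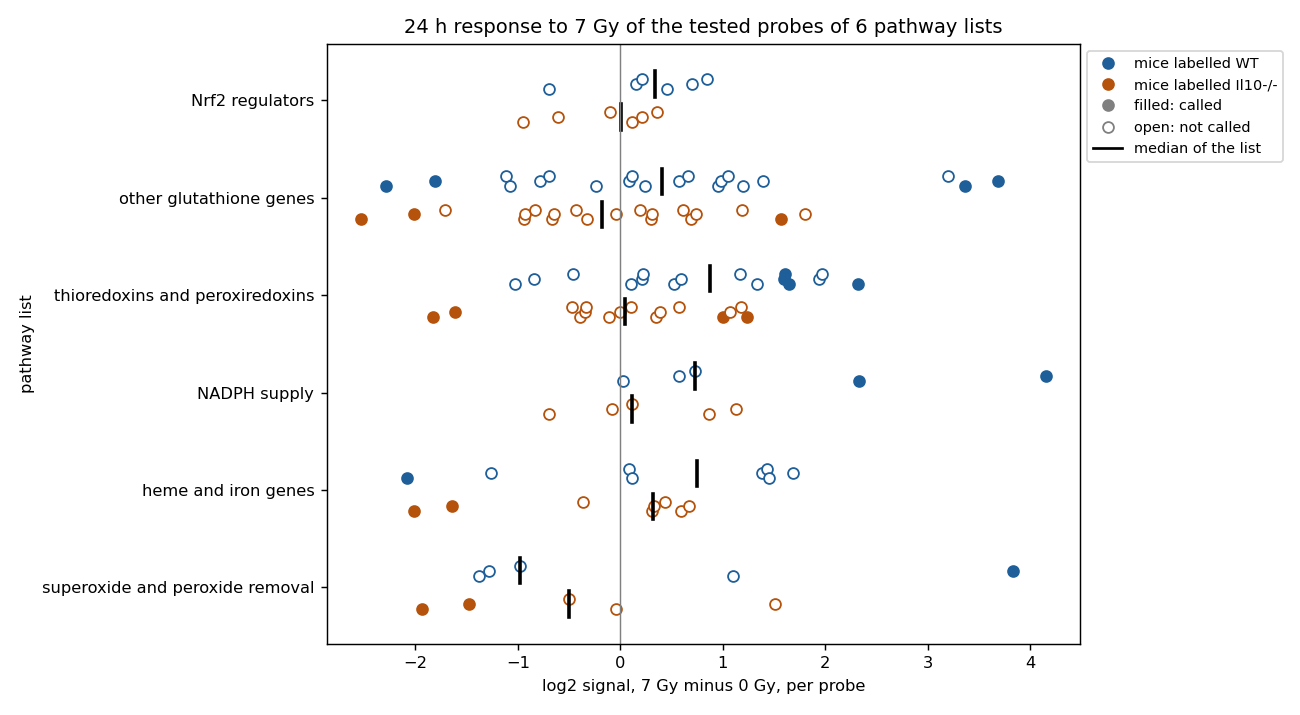
Difference in log2 signal between 7 Gy and 0 Gy (horizontal axis) for the tested probes of 6 pathway lists (vertical axis) in mice labelled WT and Il10-/-; filled points are called differences and black lines the medians of a list. The regulator list holds 0 called probes, and the called probes of the heme and iron list are all lower.

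Genes with profiles most like those of the members were found by the root mean square difference of centred log2 values over the 20 arrays. Nearest to Srxn1 were 2310034O05Rik (0.16), Litaf (0.18) and Cxx1b (0.19), where the SD of Srxn1 itself was 1.01. Nearest to Gpx1 (SD 1.05) were Gin1 (0.19) and Dcaf12 (0.20), followed by an unnamed transcript. Nearest to Gss (SD 0.89) were Wasl (0.30), Clpb (0.31) and Hadha (0.34). Both the dose and the array scaling are shared by all points, so this likeness is a description.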

How the data were processed

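Feature Extraction text files for 20 single-colour arrays were deposited, with a background-subtracted intensity per spot and no scaling between arrays. Processed log2 values that the authors deposited in a series table served as an alternative only. The submitters' processing notes name Agilent Feature Extraction 10.7 and the file headers 12.0.2.2, with positions in mm9. Intensities were converted to log2, outlier spots were left out, and the array median over 39429 non-control probes was subtracted. Following the study's methods, probes were dropped if an outlier or not above background on at least 25% of arrays, or if under 20% of arrays were 1.5-fold from their median, leaving 18587. Comparisons of 2 groups were fitted on their 10 arrays, and the difference of responses on all 20, in limma 3.58.1 (R 4.3.3), tested on simulated data. Members and lists were chosen with earlier results of these data known. Named genes are the members, up to 3 called rises and falls without overlap per list and comparison, Nfe2l2, Keap1, Bach1 and Il10, and the genes most like the leading member. Other alternatives concerned scaling, background, filters, threshold, pooling, slide, marker covariates and each array. Precision is limited by 5 arrays a group.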

Additional observations from a re-analysis of the deposited data

Results flagged for a closer look

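Within groups of 5 arrays, 5 of the 48 group and probe combinations had an array far from the others by Dixon's criterion, which chance alone gives in about 1 of 20. Among WT-labelled mice at 0 Gy, replicate 5, the array with the fewest spots well above background, was low for Gclc (log2 signal 0.422, the others 2.67 to 3.36) and for Gsr A_55_P1966982 (6.14, the others 7.38 to 7.85). Gsr A_55_P1966982 was also low on replicate 3 of the unirradiated mice labelled Il10-/- (7.62, the others 8.24 to 8.48). Nqo1 was high on replicate 4 of the WT-labelled mice at 0 Gy (4.54, the others 2.50 to 2.92). Its intensity there before scaling (126) was close to that of replicate 3 (127), where the array medians were 5.42 and 18.3. The criterion was applied only to values relative to the array median, so these flags depend on that scaling. Replicate 5 of the irradiated mice labelled Il10-/- was high for Hmox1 A_55_P2029687 (3.18, the others 2.29 to 2.54).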

How the results depend on the processing

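In mice labelled WT 2 of the members' probes were called after 7 Gy. The number was 4 with scaling to the reference array and with the table values (Gpx1 and Hmox1 A_51_P263965 added), 5 with a Benjamini-Hochberg rate under 5% alone and with all 4 groups in 1 fit (Gss also added), 3 with the slide as a replicate block (Gss added), 1 with normexp (Srxn1), 1 with the erythroid covariate (Srxn1), 0 with the hepatocyte covariate and 0 with replicates 1 and 2 averaged. Of the 10 probes, 2 and 7 had an unadjusted p below 0.05 in the last 2 limma fits. Leaving out single arrays gave 0 to 3, and 0 without unirradiated replicate 3 or irradiated replicate 5. In mice labelled Il10-/- 2 were called. The number was 0 with normexp (Gpx1 alone had an unadjusted p below 0.05), 5 under the 5% rate alone, 1 with the replicate block (Gpx1), 1 with the erythroid covariate (Srxn1) and 1 to 3 leaving out single arrays. The erythroid covariate and the averaging were chosen after the data were seen. In the other 3 comparisons 0 were called under every alternative run, and no call of a member reversed. Over all probes, the 1263 calls in mice labelled WT became 261 with normexp, 166 and 334 with the hepatocyte and erythroid covariates, 754 with averaging, 2119 with all groups and 2712 under the 5% rate. The 1702 calls in mice labelled Il10-/- became 0 with normexp (436 at an unadjusted p below 0.05), 1030 with the erythroid covariate, 815 with averaging, 1133 without unirradiated replicate 1 and 4053 under the 5% rate. The 157 calls at 0 Gy ranged from 0 with normexp (80 at an unadjusted p below 0.05) to 384 with the block, and the 1 call at 7 Gy from 0 to 3. Scaling to the 75th percentile moved the median WT response of all probes from -0.02 to -0.28, and calls from 832 higher and 431 lower to 795 and 761. Arrays of 1 slide did not deviate together in every pair of groups (mean correlation -0.13 to 0.41, best with their own number on 1 to 4 of 5 slides), so slides were not taken as pairs. No value was obtained for Gsr under the other 3 scalings or from the table, for Txnrd1 under the 75th percentile and quantile scalings, or for Gss and Hmox1 A_55_P2029687 after normexp.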
